A study of Arabidopsis thaliana with 8 samples.

Results

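MYB21 (AT3G27810), MYB24 (AT5G40350), MYB57 (AT3G01530) and MYB108 (AT3G06490) are 4 Arabidopsis R2R3 MYB transcription factor genes with known work in the stamen. They were followed here in seedlings of the voz1 voz2 double mutant and of wild type. They are 4 of the 25665 loci named on the array and are read by 5 probes, since MYB21 has a pair of them. The genes were selected with the same comparison of genotypes already known, so their differences are given as descriptions without a test.

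In the open flower, jasmonate made in the stamen leads to the breakdown of JAZ repressors, which otherwise bind MYB21, MYB24 and MYB57. The freed factors switch on genes needed for filament growth, anther opening and pollen maturation, and gibberellin acts upstream of the same factors. MYB21 and MYB24 are the main pair in filament growth, and MYB57 overlaps with them. MYB108 belongs to a different branch of the family and acts with MYB24 in anther opening. MYB108 is also tied to the response to pathogens. The 4 genes are best known from flowers, whereas the tissue measured here was the whole seedling.

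The tested plants were voz1 voz2 seedlings, which carry lesions in VOZ1 and VOZ2, a pair of zinc-finger transcription factor genes that promote flowering. They were set against wild type seedlings of Col-0, with 4 one-colour Agilent arrays of each genotype. Both genotypes were untreated, 14 days old and raised on agar with half-strength MS salts at 22 °C in 16 h of light and 8 h of dark. The labels used here do not name the voz alleles or say whether replicates were grown apart, so the spread between arrays may be technical.

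Levels are log2 processed signals relative to the 75th percentile of each array. Because probes differ in their response, each level is comparable only across arrays of one probe. VOZ2 averaged -4.26 ± 0.48 in voz1 voz2 and 1.48 ± 0.30 in wild type (SD, n = 4 each), a fall of 5.74 on the log2 scale (limma adjusted p = 1.02e-04). VOZ1 averaged -1.01 ± 0.17 in voz1 voz2 and 0.49 ± 0.06 in wild type, a difference of -1.50 (limma adjusted p = 0.00154). The arrays lay on 2 slides, with replicates 1 and 3 of both genotypes on slide 1 and replicates 2 and 4 of both on slide 2. A slide 1 array had 60.4% to 66.8% of its probes well above background, and a slide 2 array 68.4% to 70.3%. Of all 24599 genes tested, 4.44% passed an adjusted p of 0.05, and 2.72% of all tested passed it as higher in voz1 voz2. The share past it was 16.1% in a fit with slide as a block and 13.5% in a fit that blocked on replicate number.

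MYB21, the leading factor of the group in filament growth, stood apart between the genotypes at its first probe. Its processed signal was 152, 390, 254 and 529 in voz1 voz2 replicates 1 to 4, against 2.99, 4.54, 2.25 and 5.01 in wild type replicates 1 to 4. Every mutant array was well above background, no wild type array was, and the groups did not overlap. The scanner software gave errors of 15.4 to 53.0 for the mutant signals and of 1.85 to 2.41 for the wild type signals. The wild type signals were 1.004 to 2.71 times their errors, and 3 of the 4 were flagged as positive and significant though not as well above background. On the scaled log2 level the mutant averaged -2.48 ± 0.36 and wild type -8.52 ± 0.38 (SD, n = 4 each). Since wild type had no measured level, the difference is a bound, with wild type set at the lowest level flagged well above background on each array. On that floor, MYB21 was at least 26.8-fold higher in voz1 voz2 by this probe (at least 18.4-fold on slide 1 and 39.0-fold on slide 2). The floor is not a detection limit. On wild type replicate 1 it was -7.19, and the MYB57 probe at -6.52 was not well above background. The mutant means by slide were -2.61 on slide 1 and -2.34 on slide 2, so the level hardly moved between slides. The size depends on how background is treated, because the fitted difference of 6.04 became 1.45 after a normexp background correction with an offset.

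The second MYB21 probe gave another picture on slide 1. It read 3.16, 75.1, 4.75 and 98.3 in voz1 voz2 replicates 1 to 4, against 3.33, 4.41, 4.30 and 2.47 in wild type. Only mutant replicates 2 and 4, both on slide 2, were well above background, and the groups overlapped. The mutant signals of replicates 1 and 3 had errors of 3.15 and 3.80, and the wild type signals, with errors between 2.46 and 3.31, were at most 1.58 times their errors. On slide 2, where wild type was again unmeasured, the probe was at least 7.37-fold higher in voz1 voz2, and on slide 1 neither genotype was measured, so no fold is given. Well above background on 2 of the 8 arrays, this probe did not pass the filter on low signals.

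The disagreement between the MYB21 probes followed the slide. In voz1 voz2 the first probe exceeded the second by 5.59 and 5.74 log2 units on the slide 1 arrays, where the second was not measured. The excess was 2.38 and 2.43 on the slide 2 arrays. In wild type, where neither probe was measured, the same difference lay between -0.93 and 1.02. The change between slides in voz1 voz2, which rests on those unmeasured slide 1 signals, was 3.26. Its median size was 0.44 over 535 probe pairs of a single locus whose brighter probe was well above background on all 4 mutant arrays. Of those pairs, 4 changed more, and the other probe of a pair needed no such signal. Dim probes in general were seen more often on slide 2. In voz1 voz2, 4.24% of all 37478 probes were well above background on both slide 2 arrays and on neither slide 1 array, and 0.016% the other way round. In wild type these shares were 2.06% and 0.048%. The part of the slide in the reading of the second probe was not tested.

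**Figure D1:**
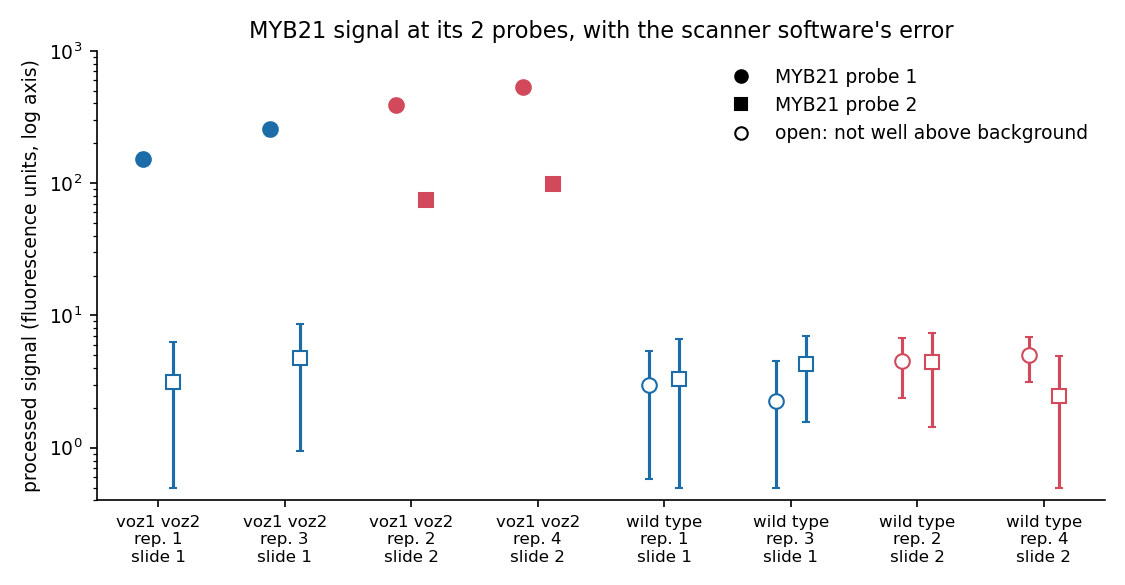
Processed signal (log axis) of the 2 MYB21 probes on each array, voz1 voz2 on the left and wild type on the right, in the order replicates 1 and 3 (slide 1) and 2 and 4 (slide 2). Bars are the scanner software's error of the signal, cut off where their lower end nears 0, colours are the slides, and filled points are well above background. The first probe reads 152 to 529 on all 4 mutant arrays, the second reads 75.1 and 98.3 on slide 2 and under 5 on the other mutant arrays.

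MYB57, which overlaps with MYB21 in stamen growth, was also higher on every mutant array than on any wild type array. Its processed signal was 73.6, 64.5, 49.8 and 106 in voz1 voz2, against 13.8, 14.7, 4.55 and 20.01 in wild type replicates 1 to 4. All 4 mutant arrays were well above background, as were wild type replicates 2 and 4. The scaled log2 level averaged -4.56 ± 0.54 in voz1 voz2 and -6.79 ± 0.58 in wild type (SD, n = 4 each), a difference of 2.23 or 4.71-fold, with wild type replicates 1 and 3 entered at signals that are not well above background. The lowest mutant array stood 0.87 above the highest wild type array. On slide 1, which holds those 2 wild type arrays, MYB57 was at least 4.49-fold higher in voz1 voz2, and on slide 2, where all arrays were measured, the log2 difference was 1.87. After the normexp correction with its offset, the MYB57 difference shrank to 0.24.

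MYB24, the usual partner of MYB21, was not measured in these seedlings. Its signal was 2.92, 1.69, 6.01 and 2.74 in voz1 voz2, against 2.90, 2.20, 3.002 and 1.82 in wild type. None of the 8 arrays was well above background, so no fold is given and no direction can be read. Mutant replicate 4 alone was flagged as positive and significant. The values show only that the MYB24 probe gave no signal well above background in whole seedlings of either genotype, not that the transcript was absent.

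MYB108, the member tied to anther opening and to pathogen response, was measured in both genotypes and overlapped between them. Its signal was 18.9, 101, 17.3 and 82.3 in voz1 voz2, against 37.2, 36.0, 6.67 and 79.3 in wild type replicates 1 to 4. Every array but wild type replicate 3 was well above background. The scaled log2 level averaged -5.36 ± 0.82 in voz1 voz2 and -5.48 ± 1.14 in wild type (SD, n = 4 each), a difference of 0.12, far inside the spread. The mean of slide 2 exceeded that of slide 1 by 1.40 in voz1 voz2 and by 0.90 in wild type, and the difference between genotypes was -0.13 on slide 1 and 0.37 on slide 2.

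**Figure D2:**
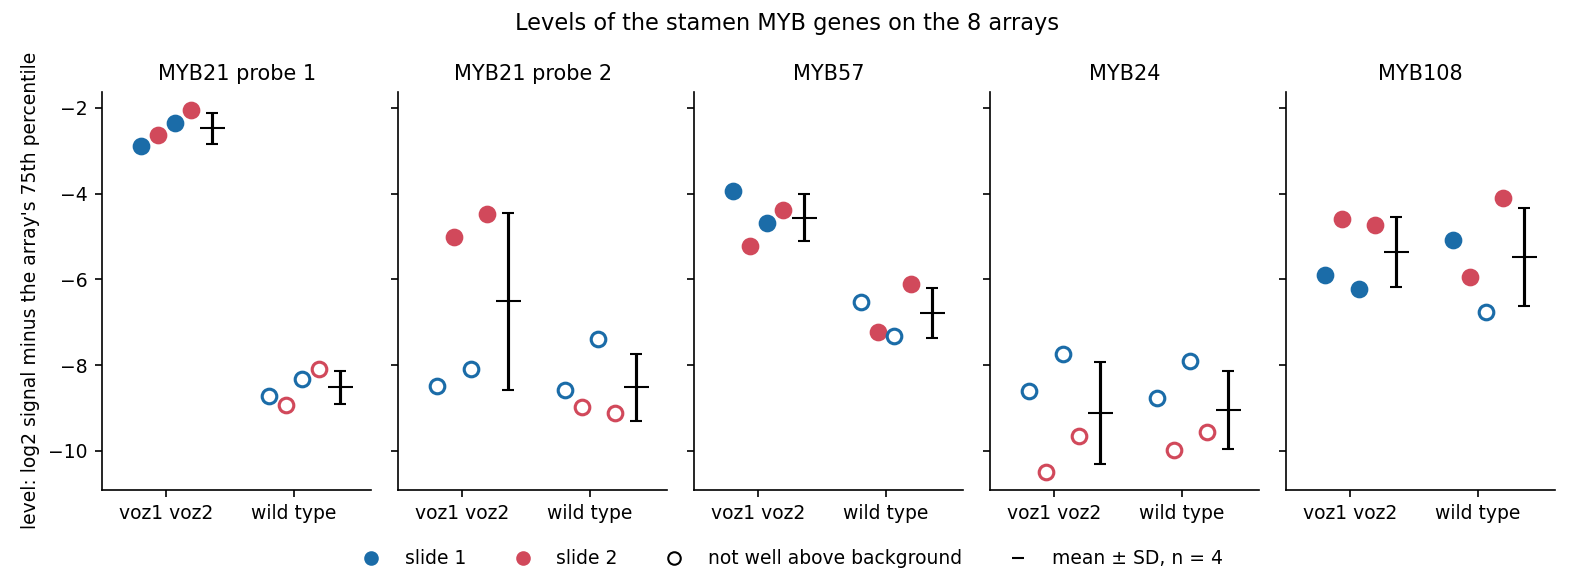
Scaled log2 level of each probe of the 4 genes, voz1 voz2 to the left of wild type, with each point an array and bars the mean and SD of 4 arrays; colours are the slides and open points are not well above background. The first MYB21 probe and MYB57 do not overlap between genotypes, MYB24 is open throughout, and MYB108 overlaps with means of -5.36 in voz1 voz2 and -5.48 in wild type.

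Of the 4 genes, 3 passed the filter on low signals and MYB24 did not. MYB21 passed it at its first probe through the mutant arrays alone. Both MYB21 and MYB57, 2 of the 4, had mutant values all above the wild type values, a pattern seen in 8.48% of the genes with values on all arrays, but the genes were chosen on this contrast and nothing is read from the share. Across the 8 arrays MYB21 and MYB57 correlated at 0.92, and at 0.18 once each genotype mean was removed, so the likeness lay in the step between genotypes. MYB21 and MYB108 correlated at 0.10 across arrays, and MYB57 and MYB108 at 0.22. With each genotype mean removed, MYB108 correlated at 0.31 with MYB21 and at 0.39 with MYB57. These are descriptions over 8 arrays that share slides. In whole seedlings, more cells with a transcript and more transcript per cell cannot be told apart.

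Other MYB genes give the setting for these values, taken as the loci whose RefSeq symbol is MYB followed by digits only. Family members under other symbols are not counted. Of 111 other MYB genes on the array, 89 were tested, and 4 of them rose and 1 fell in voz1 voz2 (5.62%, against 4.44% of all genes). With slide as a block 9 were higher and 4 lower, and a block on replicate number gave 11 higher and 3 lower. The median difference of the 89 was 0.32, with 64 above 0, whereas the median over all genes was -0.030. In the deposited table, where all genes had a median of -0.37, the family median was -0.017, so its sign turns while its place above the other genes remains. MYB57 with its 2.23 was exceeded by 2 of the 89, MYB39 and MYB90.

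MYB111, an activator of flavonol synthesis genes, averaged -1.58 ± 0.17 in voz1 voz2 and -3.06 ± 0.15 in wild type, a rise of 1.48 (SE 0.15, limma adjusted p = 0.0023). MYB39, linked to suberin deposition in the root endodermis, rose by 2.64 (SE 0.51, adjusted p = 0.030). MYB90, an activator of anthocyanin synthesis, rose by 2.49 (SE 0.51, adjusted p = 0.034). MYB69 went the other way, at -5.47 ± 0.47 in voz1 voz2 and -3.86 ± 0.20 in wild type, a difference of -1.61 (SE 0.24, adjusted p = 0.012). MYB49, named after its value was seen, completes the called genes with 0.80 (adjusted p = 0.046). The count of 5 rested on single arrays: it was 2 without mutant replicate 1 or 3, and 3 without mutant replicate 2 or 4 or wild type replicate 3 or 4. MYB39 lost its call without mutant replicate 1, 2 or 3 or wild type replicate 1 or 3 (adjusted p = 0.054 to 0.080). MYB90 lost its call without mutant replicate 1, 3 or 4 or wild type replicate 2, 3 or 4 (adjusted p = 0.056 to 0.095). No family member was called after the normexp correction or in the deposited table.

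**Figure D3:**
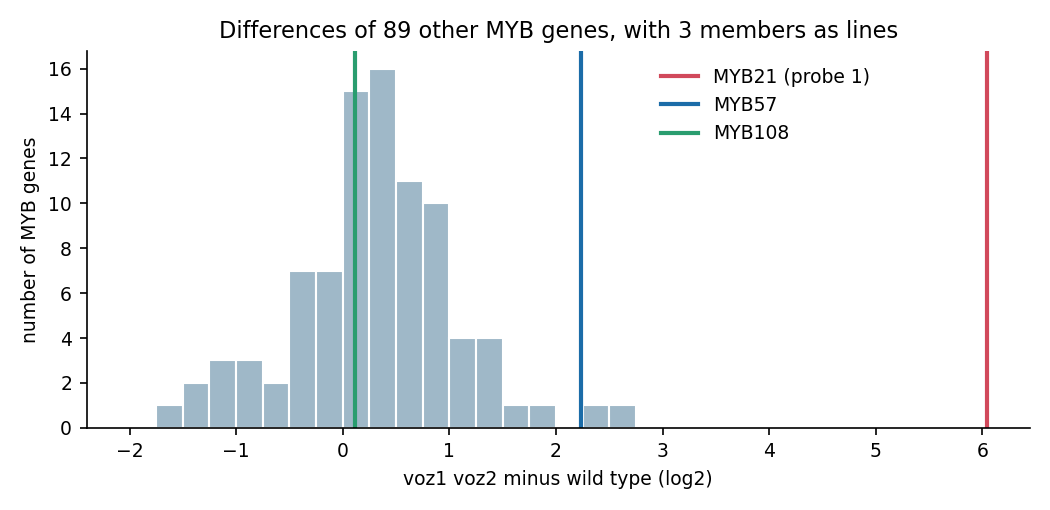
Number of other MYB genes (n = 89) by their log2 difference, voz1 voz2 minus wild type, with MYB21 (probe 1), MYB57 and MYB108 as lines. MYB108 at 0.12 lies in the bulk, MYB57 at 2.23 near the upper end, and MYB21 at 6.04 beyond all of them, though its wild type level is unmeasured and only a bound of 26.8-fold is given for it.

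MYB108 has close relatives in R2R3 subgroup 20, of which 4 of 5 were tested and none passed the threshold (1 at an unadjusted p under 0.05). The smallest p values were those of MYB62, a regulator of phosphate starvation and gibberellin responses, with -0.33 (adjusted p = 0.186), and of MYB78 with -0.46 (adjusted p = 0.578), which ranged from -0.89 without wild type replicate 3 to -0.22 without wild type replicate 4. These relatives showed no difference past the threshold, which does not show that they were equal between the genotypes.

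Jasmonate is the hormone upstream of MYB21, MYB24 and MYB57. Of 14 synthesis genes 13 were tested and none passed the threshold (1 at an unadjusted p under 0.05), with a median difference of 0.51 and 12 above 0, against 47.2% above 0 over all genes. The count at an unadjusted p under 0.05 was unsteady: 6 with either block, 9 without wild type replicate 1, 5 without mutant replicate 2, and 0 without mutant replicate 1, 3 or 4 or wild type replicate 4. AOC3, an allene oxide cyclase gene, averaged -3.95 ± 0.40 in voz1 voz2 and -5.36 ± 1.36 in wild type (adjusted p = 0.207), a difference of 1.41 that was 0.92 without wild type replicate 3 and 0.26 with normexp. AOS, the allene oxide synthase gene, averaged 4.48 ± 0.33 in voz1 voz2 and 3.86 ± 0.50 in wild type (adjusted p = 0.221). DAD1, the lipase that starts jasmonate synthesis in the filament, was not well above background on any array. Of 20 perception and response genes all were tested and none passed (3 at an unadjusted p under 0.05, 7 with either block and 1 without mutant replicate 3), with a median of -0.25 and 5 above 0. JAZ6, which encodes one of the repressors of the pathway, gave -0.66 (adjusted p = 0.129), and MYC5, a jasmonate factor of the stamen, gave 1.83 (adjusted p = 0.151), or 1.06 without wild type replicate 4.

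Gibberellin and auxin regulators act upstream of the stamen factors as well. Of 13 such genes 12 were tested and none passed (5 at an unadjusted p under 0.05), with a median of 0.08. With slide or the replicate number as a block, 3 of them passed. ARF8, an auxin response factor that acts upstream of MYB21 in flowers, averaged 0.13 ± 0.04 in voz1 voz2 and 0.60 ± 0.10 in wild type. The ARF8 difference was -0.46 (adjusted p = 0.064, 0.019 with slide and 0.041 with replicate number as a block). RGL2, a DELLA repressor of gibberellin response, differed by 1.06 (adjusted p = 0.065, 0.036 with slide and 0.034 with the replicate number). GA20OX1, a gibberellin synthesis gene named because it is the remaining one, differed by 0.57 (adjusted p = 0.108, 0.035 with slide and 0.044 with the replicate number).

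Downstream, 4 genes have been linked to MYB21 or its partners in flowers, and 2 of them were tested. FLS1, a flavonol synthase gene, averaged 3.43 ± 0.34 in voz1 voz2 and 2.38 ± 0.40 in wild type. The FLS1 difference of 1.05 missed the threshold (adjusted p = 0.052) and passed it with slide (0.028) or the replicate number (0.034) as the block. MYB111, named above, also acts on FLS1, and the part of either factor was not tested. SAUR63, an auxin-induced growth gene, averaged 0.83 ± 0.66 in voz1 voz2 and 0.77 ± 0.33 in wild type (adjusted p = 0.937), and its sign turned with the scaling. The sesquiterpene synthase genes TPS11 and TPS21 did not pass the filter, with TPS11 well above background on 1 wild type array and TPS21 on none.

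**Figure D4:**
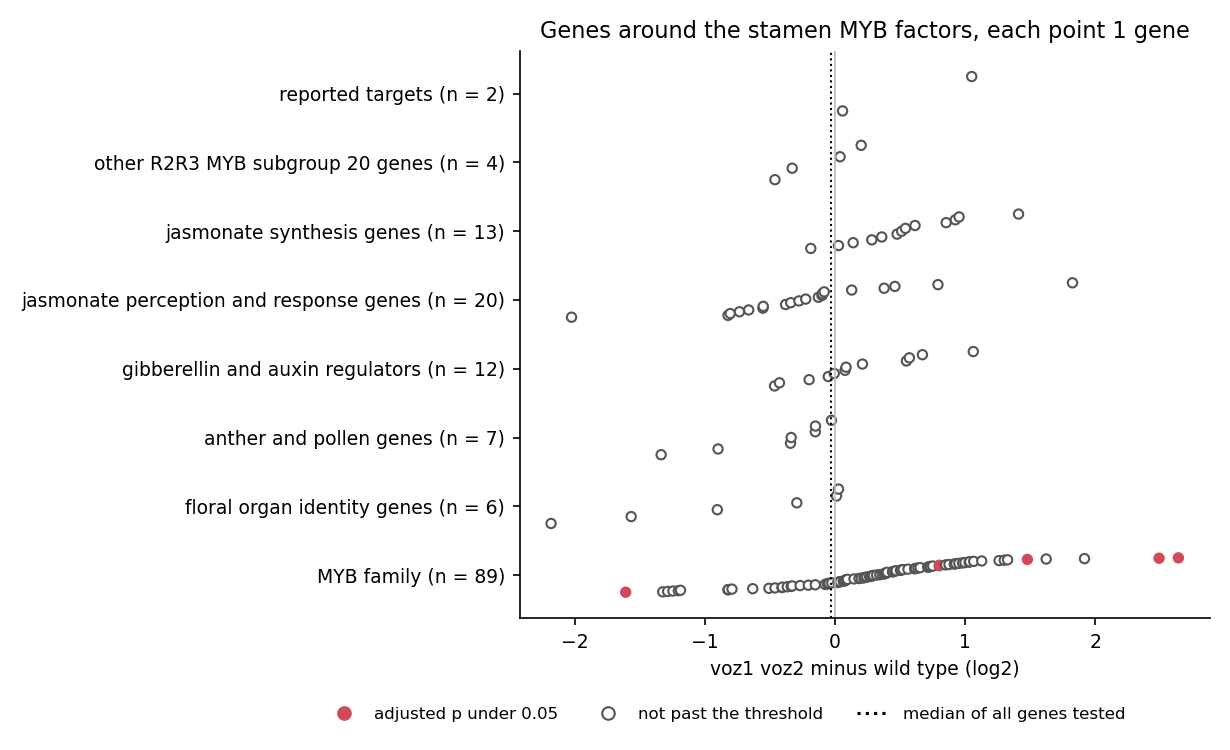
Log2 difference, voz1 voz2 minus wild type, of each tested gene in the lists around the stamen factors and of the other MYB genes, with filled points past an adjusted p of 0.05 and the dotted line at the median of all genes. No gene outside the MYB family is filled; 12 of 13 jasmonate synthesis genes lie above 0 and 0 of 7 anther and pollen genes do.

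Since these factors are known from stamens, the seedlings were checked for other flower transcripts. Of 22 anther and pollen genes, between 6 and 9 were well above background on each array of either genotype, 11 on no array, and 6 on all. Their summed signal, relative to the 75th percentile, was 1.78 to 2.11 in voz1 voz2 and 1.83 to 2.93 in wild type. Of these genes 7 were tested and none passed (2 at an unadjusted p under 0.05), their median difference being -0.34. LAP6, a sporopollenin synthesis gene of the tapetum, gave -0.90 (adjusted p = 0.145, 0.033 with slide and 0.027 with replicate number as a block), and MS2, a gene of pollen wall formation, gave -1.33 (adjusted p = 0.164).

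Of 8 floral organ identity genes, between 4 and 7 were well above background on voz1 voz2 arrays and between 3 and 8 on wild type arrays. Of the 6 tested none passed (2 at an unadjusted p under 0.05), with a median of -0.60. SEP2 gave -1.56 (adjusted p = 0.077, 0.046 with slide as a block, and 0.023 without mutant replicate 2), and AG, the stamen and carpel identity gene, gave -0.90 (adjusted p = 0.199). In the main fit the flower lists had medians under 0 and no called gene, while LAP6 and SEP2 passed with slide as a block. MYB21 and MYB57 were higher in voz1 voz2, and the part of flower tissue in their levels was not tested. All 4 leaf and all 6 root markers were well above background on every array of both genotypes. The root markers had a median difference of 0.95 with 5 above 0, and the leaf markers -0.19 with 1 above 0. None of these markers passed the threshold, and 1 root marker had an unadjusted p under 0.05. The root markers MYB36 and WER also count among the other MYB genes.

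STM, which keeps the shoot meristem, was the 1 shoot apex marker tested, and it fell in voz1 voz2. It averaged -4.53 ± 1.13 in voz1 voz2 and -1.63 ± 0.84 in wild type, a difference of -2.90 (SE 0.61, adjusted p = 0.037). The call was lost without any single array other than wild type replicate 2 (adjusted p = 0.057 to 0.099). It was also lost with normexp (difference -1.50), in the deposited table (-3.24) and with no filter. The other apex markers, CLV3 and WUS, were not tested because of low signals, and between 1 and 2 of the 3 were well above background per array. The signal summed over the 3 markers, STM included, was 0.020 to 0.088 in voz1 voz2 and 0.19 to 0.59 in wild type. The part of the makeup of the seedlings in the MYB21 and MYB57 levels was not tested.

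The genes whose levels were most like that of MYB21 over the 8 arrays, out of 20691 compared, were DREB2C (Pearson r = 0.991), AT3G46070 (0.990), AT1G71950 (0.990), PMZ (0.987) and AT5G07610 (0.987). With 4 arrays on either side of so wide a step, a high r mainly marks genes with a clean step between genotypes. The 5 genes were picked by this likeness, so their p values between genotypes follow from the choice and are no separate support. DREB2C, a heat and drought response factor, averaged -2.87 ± 0.25 in voz1 voz2 and -4.98 ± 0.20 in wild type, a difference of 2.12 (adjusted p = 0.0013). PMZ, a stress-associated zinc-finger gene, averaged -0.88 ± 0.27 in voz1 voz2 and -2.90 ± 0.18 in wild type, a difference of 2.02 (adjusted p = 0.0014). AT5G07610 was well above background on all 4 mutant arrays and no wild type array, so it passed the filter through the mutant arrays alone. It was at least 4.47-fold higher in voz1 voz2 (adjusted p = 0.0012). AT3G46070 differed by 2.21 (adjusted p = 0.0020). AT1G71950 differed by 0.63 (adjusted p = 0.029), and this call was lost without any single array other than wild type replicate 2 (adjusted p = 0.050 to 0.086). In the deposited table, which subtracts a constant per genotype and does not scale single arrays, none of these 5 genes kept its call. The correlations there were 0.91 for DREB2C, 0.44 for AT1G71950 and 0.88 for PMZ. With normexp only PMZ of the 5 kept its call, the differences being 0.88 for DREB2C (adjusted p = 0.36), 0.32 for AT3G46070 and 0.27 for AT5G07610. The normexp correlations with MYB21 were 0.74 for AT3G46070, 0.70 for AT5G07610, 0.83 for AT1G71950 and 0.86 for PMZ.

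**Figure D5:**
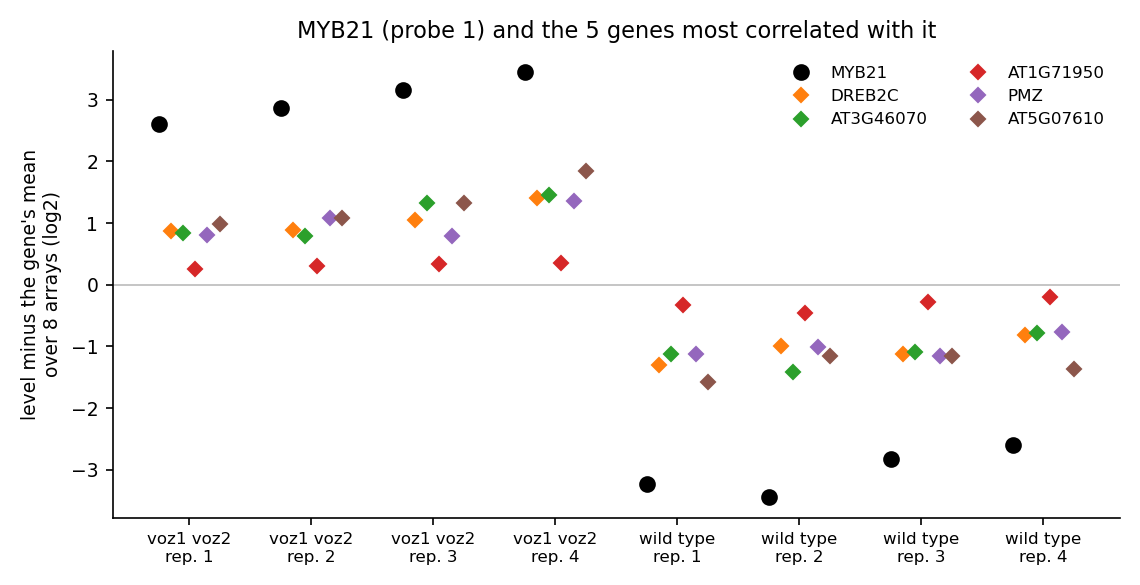
Log2 level of MYB21 (probe 1, black circles) and of the 5 genes most correlated with it, each minus its own mean over the 8 arrays, by array with voz1 voz2 on the left. The 4 mutant arrays lie above 0 and the 4 wild type arrays below 0 for all 6 genes, and the step of MYB21 is the widest of the 6.

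MYB108 had another set of most similar genes, and none of them passed the threshold between genotypes. They were AT3G12460 (r = 0.959), AT1G32470 (0.949), CML30, a calmodulin-like gene (0.946), AT1G74320 (0.937) and AT1G32700 (0.935). After the normexp correction the correlation of AT3G12460 with MYB108 was 0.97. The others became -0.21 for AT1G32470, 0.0020 for CML30, -0.11 for AT1G74320 and -0.28 for AT1G32700.

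The genes beside each member on the chromosome, by the order in the RefSeq annotation TAIR10.1, held no call at the threshold. Beside MYB21, MDAR4 differed by -0.067 (adjusted p = 0.878) and MYB118 was not well above background on any array. Beside MYB57, AT3G01516 differed by 0.12 (adjusted p = 0.891) and DRH1, an RNA helicase gene, by -0.70 (adjusted p = 0.057, 0.023 with slide and 0.033 with replicate number as a block). AT3G01520 overlaps MYB57 and differed by -0.20 (adjusted p = 0.510), at levels of 2.02 ± 0.24 in voz1 voz2 and 2.21 ± 0.16 in wild type. Loci that overlap MYB21 (AT3G27809 and AT3G05315) and MYB24 (AT5G40348) have no probe on the array. Beside MYB24, AT5G40340 differed by -0.17 (adjusted p = 0.919) and MYB115 was not measured. Beside MYB108, PDK differed by 0.30 (adjusted p = 0.336) and A/N-InvC by -0.42 (adjusted p = 0.469).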

How the data were processed

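The deposited scanner output of 8 arrays gives spot intensity, read with Agilent Feature Extraction (version 9.1.3.1 in the submitters' processing notes). The processed signal, already background-subtracted per the file headers, was averaged on the log2 scale over the spots of a probe, leaving out outlier-flagged spots (9 to 111 per array, none of a member). The 75th percentile of each array over 37478 non-control probes was subtracted. The authors' deposited series table is on the natural log scale, and its values equal the logged processed signal less 6.91 on voz1 voz2 and 6.42 on wild type arrays. The table thus has no scaling of single arrays, whose 75th percentile signals ran from 722 to 2415. It served as an alternative. No spot was saturated, and the number of arrays limits the precision.

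Tested probes had to be well above background on 4 or more of the 8 arrays, with the brightest probe for each locus (24599 genes), in limma 3.58.1 under R 4.3.3 with Benjamini-Hochberg adjustment at 0.05, also on simulated data. Bounds set the bright mean against the higher of the lowest well-above-background signal and the dim signal on each array. That floor is not a detection limit of the probe concerned, so each bound holds only relative to it. The members and lists were chosen with earlier results of these data known. Named genes are the members, VOZ1 and VOZ2, up to 4 called genes of each list or otherwise the 2 with the smallest p, the 5 genes most correlated with MYB21 and with MYB108, neighbours and tissue markers. MYB49 and GA20OX1 fall outside that rule. Alternatives were other scalings, filters and probe rules, blocks, each slide alone, each array left out, and normexp with an offset of 50, for which the median signal replaced the mean signal. Same-numbered arrays of the 2 genotypes deviated together (correlations of 0.32, 0.51, 0.46 and 0.61 over genes), and since numbers 1 and 3 share a slide, as do 2 and 4, number and slide are linked.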

Additional observations from a re-analysis of the deposited data

Results flagged for a closer look

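In 2 of 62 groups of 4 arrays screened, 1 array stood far from the other 3, and chance alone marks about 1 group in 20. ARF8 in voz1 voz2 replicate 3 was at 0.070, while the other mutant arrays lay between 0.15 and 0.16. MYB90 in wild type replicate 1 was at -4.61, while the other wild type arrays lay between -6.04 and -5.96. None of the groups of the stamen MYB probes was marked.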

How the results depend on the processing

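The direction of MYB21 at its first probe and of MYB57 was the same under the other scalings, normexp, the deposited table, the blocks, each slide alone and each array left out. The filters and probe rules were not run on these differences. Leaving out 1 array gave bounds of at least 23.3-fold to 32.1-fold for MYB21 and log2 differences of 2.03 to 2.47 for MYB57 and -0.31 to 0.57 for MYB108. Normexp gave 1.45 for MYB21 and 0.24 for MYB57. Of 1091 genes past the threshold (668 higher, 423 lower), the number became 94 with normexp (75 higher, 19 lower), 715 with median scaling, 70 in the deposited table (30 higher, 40 lower), 514 with no filter, 3955 with slide as a block and 3314 with the replicate block. Each slide alone gave 0, with 4486 and 4031 at an unadjusted p under 0.05 on slides 1 and 2. Leaving out 1 array gave 387 to 1506 genes, among them 443, 387, 407 and 639 without mutant replicates 1 to 4, and 530 and 424 without wild type replicates 1 and 4. The count in the MYB family was 0 with normexp, in the deposited table and on each slide alone, 3 with no filter, 13 with slide as a block, 14 with the replicate block, and 2 to 7 without 1 array. The replicate block and the slide block each gave 3 called gibberellin and auxin regulators, 1 anther and pollen gene and 1 linked downstream gene, and the slide block 1 floral organ identity gene. No filter gave 1 anther and pollen gene, and the filter on all 8 arrays 1 linked downstream gene. Without 1 array, 0 to 1 were called among the floral genes (1 without mutant replicate 2), among the linked downstream genes (1 without wild type replicate 2), and among the jasmonate perception and response genes (1 without mutant replicate 4 or wild type replicate 2). SAUR63 turned from 0.059 to -0.048 with normexp, -0.056 with median scaling, -0.28 in the deposited table and -0.20 on slide 1, and ranged from -0.17 to 0.33 without 1 array. Of 12 called named genes, 8 kept the call without any single array. With either block none of the 12 lost its call. The call was lost by 9 of them with normexp, by 12 on each slide alone and by 11 in the deposited table. It was lost by 4 with no filter and by 1 with median scaling. The 8 include DREB2C, AT3G46070, PMZ and AT5G07610, which were picked by likeness to MYB21, so their calls are no separate support. Median scaling put the median of all genes at -0.15 and the deposited table at -0.37. The cause of these changes was not tested.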
